A study of Mus musculus with 3 samples.

Results

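A small set of cells in cultures of murine bone marrow-derived macrophages (BMDMs) carried abundant transcripts of *S100a8* and *S100a9*, the 2 subunits of calprotectin, the major cytosolic protein of neutrophils. These neutrophil-like cells were picked by 1 rule. A barcode was kept when it held more than 500 unique molecular identifiers (UMIs, each tagging 1 captured transcript), more than 500 genes and less than 5% mitochondrial UMIs, and a kept cell was a member when *S100a8* plus *S100a9* made 1% or more of its UMIs. The rule found 84 members among 15806 kept cells, 0.531% in all.

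The BMDMs came from bone marrow of female C3H/HeN mice 6 to 8 weeks old and were differentiated in L929-conditioned medium. The study describes the sequenced cells as derived from 3 mice and treated separately before pooling. Ctrl cells received PBS and were collected at 4 h. LP1 and LP4 cells received 1 µg/mL of purified *Borrelia burgdorferi* lipoproteins (*Bb*LP), ligands of Toll-like receptor 2, for 1 h and 4 h. Each condition was a single 3′ droplet library made from cells pooled over 3 wells, so no spread between replicates exists, no test was made, and condition, library and capture cannot be told apart. All intervals below are exact 95% intervals that cover counting error only.

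Neutrophils mature in the marrow through stages that differ in the granule proteins they make. The early dividing precursors make the azurophil granule proteases and myeloperoxidase, their dividing successors make the specific granule proteins, and cells that have left the cell cycle add gelatinase granule proteins and the receptors of the circulating neutrophil. Macrophages make few of these products, and the medium used here supports macrophage growth.

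The libraries held 35749924 UMIs over 6123 barcodes in Ctrl, 52773906 over 5119 in LP1 and 64787139 over 5039 in LP4. In Ctrl, 32 of 6071 kept cells were members, a share of 0.527% (exact binomial interval 0.361 to 0.743%). In LP1 they were 24 of 5065 (0.474%, 0.304 to 0.704%), and in LP4 28 of 4670 (0.60%, 0.399 to 0.865%). The counting intervals of the 3 shares overlap. At a mitochondrial limit of 3%, which removed 2710 kept LP4 cells but 1 LP4 member, the shares were 0.528% (0.359 to 0.749%), 0.670% (0.410 to 1.03%) and 1.38% (0.910 to 2.00%), and the LP4 interval no longer overlapped that of Ctrl. No member shared its barcode sequence with a kept cell of another library, although Ctrl had 9 kept barcodes in common with LP1 and 7 with LP4, and LP1 had 3 in common with LP4.

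The threshold fell in an empty stretch of the distribution. The lowest member of Ctrl, LP1 and LP4 held 1.14%, 1.67% and 1.59% of its UMIs in *S100a8* plus *S100a9*, whereas the highest kept cell outside the group held 0.119%, 0.0527% and 0.243%. The member medians were 12.4%, 10.7% and 12.4%, and the highest members reached 20.8%, 14.2% and 22.0%. These values chose the members and are given as a description. A further 6 Ctrl barcodes passed the threshold with 8.58 to 16.0% but were removed because they held only 394 to 496 genes. Among the other kept cells, 10.9%, 11.0% and 19.8% had an *S100a8* UMI but only 0.613%, 0.456% and 2.00% had an *S100a9* UMI.

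**Figure D1:**
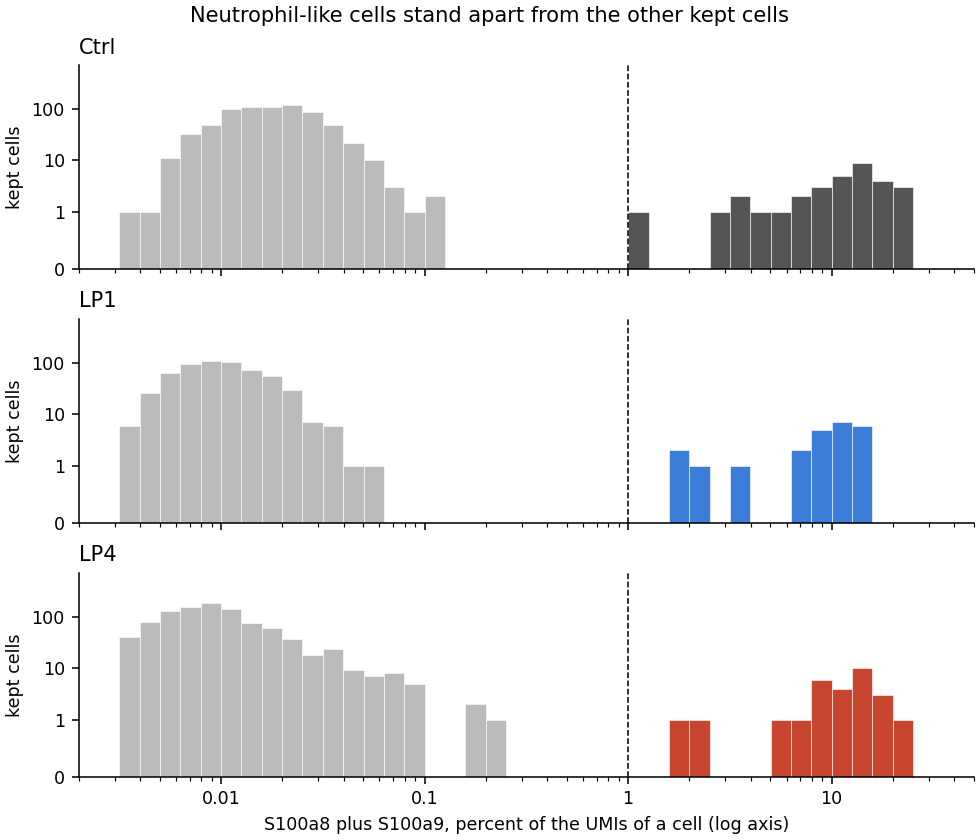
Number of kept cells (vertical axis, symmetric log scale) by the percentage of their UMIs from *S100a8* plus *S100a9* (horizontal axis, log scale), 1 panel per library, with the 1% threshold as a dashed line. Cells at 0 or below the axis start are not drawn, and no kept cell lies between 0.243% and 1.14% in any library.

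Members were shallower than their neighbours. Their median depth was 2940, 5877 and 9262 UMIs in Ctrl, LP1 and LP4, against 5141, 9361 and 11799.5 UMIs in the other kept cells. Summed over members, the 3 libraries gave 102183, 134514 and 235586 UMIs, and a count of 0 allowed up to 29.4, 22.3 and 12.7 CPM (a gene's UMIs per 1000000 UMIs of the summed cells) at a floor of 3 counts. Median mitochondrial shares were 1.06%, 2.16% and 1.27% in members and 1.97%, 2.85% and 3.18% in the other cells.

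The label was checked against markers the rule did not use. *Ngp*, *Camp*, *Ltf* and *Retnlg* all had UMIs in the members of every library, whereas the macrophage list of 15 genes summed to 1722, 245 and 263 CPM in members against 15845, 15397 and 12266 CPM in the other kept cells. *C1qc*, *Mertk* and *Fcgr1* were at 0 in the members of all 3 libraries, and 7 list genes were at 0 in LP1 and 8 in LP4. The most abundant was *Gpnmb* in Ctrl (79 UMIs) and *Csf1r*, the receptor that drives macrophage survival, in LP1 (9 UMIs). In LP4 *Csf1r* and *Gpnmb* were level at 17 UMIs each. In Ctrl 2 members held 1.24% and 0.830% of their UMIs in macrophage genes, near the median of 1.53% of the other Ctrl cells, and their part in the results was not tested beyond the values without them given below.

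Markers of other cell types were scarce. Eosinophil and erythroid genes had no UMI in any member, lymphoid genes had 1, 3 and 0 UMIs, dendritic cell genes 1, 1 and 5, and the stromal list 3, 0 and 0, all of *Col1a1*. The mast cell and basophil list was almost wholly *Kit*, the stem cell factor receptor that early myeloid precursors also carry, with 5, 10 and 11 UMIs beside 1 UMI of *Mcpt8* in each library. The monocyte list rested on *Ly6c2* (49, 65 and 129 UMIs), a surface antigen shared by monocytes and immature neutrophils, and *Fn1* and *Klf4* were at 0 in LP1 and LP4. In the sums over members the name neutrophil-like therefore fits the markers fixed for it, with the mature surface antigen *Ly6g* low at 6, 11 and 2 UMIs. It fits less well for 17 members rich in azurophil granule transcripts, described below, of which 9 had an *Ngp* UMI, 3 a *Camp* UMI and none a UMI of *Ltf* or *Retnlg*. In the same cells *Csf1r* and *Irf8*, a monocyte lineage factor, each had UMIs in 7, and *Ly6c2* was at 742 CPM.

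Members were then set against all other kept cells of the same library, on the mean of the 3 library log2 ratios of CPM. Of 4161 genes with at least 50 CPM in either group, 804 (19.3%) were 2-fold or more higher in members and 993 (23.9%) were 2-fold or more lower, with a median log2 ratio of −0.05. Without the *S100a8*, *S100a9*, mitochondrial and ribosomal protein UMIs in the total, the split was 1029 higher and 820 lower. Since these cells were chosen on 2 of their own transcripts, the contrast is a description.

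Specific granule genes were far higher in members. All 6 of the list were higher in members, with a median log2 ratio of 12.75. *Ngp*, which encodes neutrophilic granule protein, was at 12154.7, 12006.2 and 10586.4 CPM in Ctrl, LP1 and LP4 members and at 0.309, 0.115 and 0.458 CPM in the other cells. *Camp*, the cathelicidin antimicrobial peptide, was at 1556, 2446 and 1723 CPM in members and at 0.229 CPM or less outside them. *Ltf*, the iron-binding lactoferrin, was at 1194, 974 and 815 CPM against 0.169 CPM or less. The 3 genes lie on chromosome 9 within 1.20 Mb (GRCm38), *Camp* at chr9:109847379-109849617 on the minus strand, *Ngp* at chr9:110419747-110423012 and *Ltf* at chr9:111019271-111042767 on the plus strand, all protein coding.

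*Lcn2*, the siderophore-binding lipocalin-2, differed from *Ngp*, *Camp* and *Ltf* in its signal outside the members. Every member had an *Lcn2* UMI, at 5813, 5598 and 7008 CPM. The other cells held 0.843, 0.344 and 15.2 CPM, and 8.94% of them had an *Lcn2* UMI in LP4. The member level thus differed little between libraries, whereas that of the other cells was highest in LP4. *Cd177*, a neutrophil surface protein kept in specific granules, was at 117, 112 and 72.2 CPM in members, and *Chil3*, a chitinase-like lectin, at 196, 468 and 242 CPM.

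The windows upstream of these genes were searched because this list had the largest median ratio of the granule lists. In the 250 bases before each RefSeq transcript start (GRCm38.p6), the letters TTGCNNAA, a motif of CCAAT/enhancer-binding proteins (C/EBPs), were sought on both strands. They occur in 3142 of 32851 windows (9.56%), in 3 of 6 specific granule genes (*Ngp*, *Ltf* and *Lcn2*, not *Camp*) and in 0 of 5 azurophil granule genes with a window. The first share counts windows, which belong to 27025 genes. The list shares here and below count genes with a match in any of their windows, so the 2 kinds of share are not alike. *Ngp* has 2 matches and *Ltf* and *Lcn2* have 1 each. The *Lcn2* window has 0 bases before the gene start in the GENCODE annotation. Its match thus lies past that start and is not upstream of the annotated gene, and it is not printed. The stretches below run 5′ to 3′ on the gene's strand, with matches in capitals, up to the gene start in the GENCODE annotation, which lies upstream of the RefSeq start. They span chr9:110419558-110419746 for *Ngp*, whose other match lies past that start, and chr9:111019042-111019270 for *Ltf*, both outside the annotated genes.
Ngp: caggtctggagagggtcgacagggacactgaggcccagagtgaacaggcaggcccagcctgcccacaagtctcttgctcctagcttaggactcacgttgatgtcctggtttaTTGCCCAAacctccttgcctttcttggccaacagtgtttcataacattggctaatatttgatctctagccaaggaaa
Ltf: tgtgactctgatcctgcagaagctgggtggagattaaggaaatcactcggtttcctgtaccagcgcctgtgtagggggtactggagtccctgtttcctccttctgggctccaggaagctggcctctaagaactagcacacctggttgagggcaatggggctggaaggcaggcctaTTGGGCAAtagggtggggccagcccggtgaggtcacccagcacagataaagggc
A match describes letters and is not evidence of binding, and a window without one says only that these letters are not in it.

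Azurophil granule genes were also all higher in members, 6 of 6 with a median log2 ratio of 10.72. *Mpo*, myeloperoxidase (chr11:87793581-87804413), was at 1439, 1777 and 968 CPM in members, and *Elane*, neutrophil elastase (chr10:79886247-79888215), at 1262, 1747 and 845 CPM. The proteases *Prtn3* and *Ctsg* were at 1351, 2476 and 1061 CPM and at 617, 1412 and 675 CPM. *Ms4a3*, a membrane protein of granulocyte and monocyte precursors, was at 274, 454 and 297 CPM. Unlike *Lcn2*, these transcripts were held by part of the members only, with *Mpo* UMIs in 11 of 32, 12 of 24 and 11 of 28.

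Genes of later granules and of the mature cell gave a mixed picture. Of 7 gelatinase granule genes 4 entered, 3 were higher and none lower, with a median of 8.53. *Wfdc21*, a whey acidic protein domain gene, was at 1067, 914 and 1460 CPM and *Hp*, haptoglobin, at 744, 736 and 1002 CPM, whereas the collagenase *Mmp8* had no excess, with 166, 141 and 72.2 CPM in members and 174, 174 and 185 CPM in the other cells. *Retnlg*, which encodes resistin-like gamma and marks mature neutrophils, was held by only 6, 2 and 1 members with 27, 29 and 1 UMIs.

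Of 16 genes of mature neutrophils 12 entered, 10 were higher and 1 was lower, with a median of 5.61. *Stfa2l1*, a stefin-family protease inhibitor, was at 274, 253 and 255 CPM in members and had no UMI in any other kept cell. *Cxcr2*, the chemokine receptor of circulating neutrophils, had 2, 8 and 7 UMIs. *Csf3r*, the receptor for granulocyte colony-stimulating factor, was at 39.2, 74.3 and 72.2 CPM in members and at 35.2, 29.5 and 78.9 CPM in the other cells, which is no consistent difference.

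Among transcription factors of the granulocyte lineage 4 of 6 genes entered. Of these 2 were higher and none lower, where 19.3% of all genes were higher and 23.9% lower. *Cebpe*, the factor that specific granule genes require, was at 323, 357 and 259 CPM in members and at 2.05, 1.83 and 0.703 CPM outside. *Spi1*, which encodes PU.1 and serves both lineages, was at 656, 498 and 607 CPM against 561, 512 and 506 CPM. *Gfi1*, which encodes a transcriptional repressor, had 4, 5 and 5 UMIs in members and at most 0.0327 CPM in the other cells.

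The NADPH oxidase, the superoxide-generating complex of phagocytes, was present in members and other cells alike. Of 6 subunit genes 2 were higher and none lower, where 19.3% of all genes were higher and 23.9% lower. The list median was 0.65. The cytosolic subunit gene *Ncf1* was at 695, 513 and 628 CPM in members against 177, 136 and 92.4 CPM, and the GTPase gene *Rac2* at 646, 632 and 484 CPM against 196, 171 and 135 CPM. The membrane subunit gene *Cyba* was at 1810, 1613 and 1324 CPM in members and 2042, 1980 and 1354 CPM outside. *Lyz2*, lysozyme, a gene named after its values were seen, was likewise high in both, at 6802, 7635 and 6983 CPM in members and 9216, 9690 and 8723 CPM outside.

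Cell cycle genes were higher in the summed members, carried by 35 of the 84 members that held 0.5% or more of their UMIs in them. Of 15 S phase genes 13 entered and 11 were higher in members (median log2 ratio 2.78), and 15 of 15 G2/M genes were higher (median 3.41). *Mki67*, the proliferation antigen, was at 998, 1026 and 862 CPM in members and at 219, 219 and 297 CPM in the other cells.

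The 20 genes with the largest ratios under the rule for named genes were mostly granule genes. They were led by *Ngp* (15.48), *Camp* (14.67), *Ltf* (12.82) and *Fcnb* (12.73), a ficolin of the lectin complement pathway, and also held *Chil3*, *Ms4a3*, *Wfdc21*, *Lcn2*, *Elane*, *Mpo*, *Prtn3* and *Ctsg*. *Pglyrp1*, a peptidoglycan-binding granule protein, stood at 12.09. The remaining 7 were *G0s2* (12.50), a lipolysis inhibitor, *Stfa2l1* (12.04, a lower bound), *Ncam1* (11.14), an adhesion molecule, *Rflnb* (9.85), *Myb* (9.78), a factor of dividing blood precursors, *Adgrg3* (9.67), an adhesion receptor of granulocytes, and *Abca13* (9.60), a lipid transporter. *Chil3*, *Ms4a3*, *G0s2* and *Mpo* had no UMI in the other cells of 1 library, where the ratio is a lower bound.

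The 10 smallest log2 ratios belonged to *Fabp5* (−6.24), a fatty acid carrier, *Il7r* (−6.19), *Mmp12* (−6.17), macrophage elastase, *Gpnmb* (−6.13), *Trem2* (−5.51), a lipid-sensing receptor, *Sdc4* (−5.32), *Cd36* (−5.29), a scavenger receptor, *Igf1* (−5.28), a growth factor, *Tnip3* (−5.24) and *Lpl* (−5.22), lipoprotein lipase. *Sdc4*, *Cd36* and *Igf1* had no UMI in the members of 1 library, so their mean ratios are upper bounds. *Fabp5* had 71 UMIs in Ctrl members but 5 and 1 in LP1 and LP4 members. All 12 macrophage list genes that entered were lower, with a median of −3.45, and of the monocyte list *Ly6c2* was higher and 3 others were lower (median −1.63). The 1 dendritic cell gene that entered was lower (−2.66) and *Kit* was higher (9.86).

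**Figure D2:**
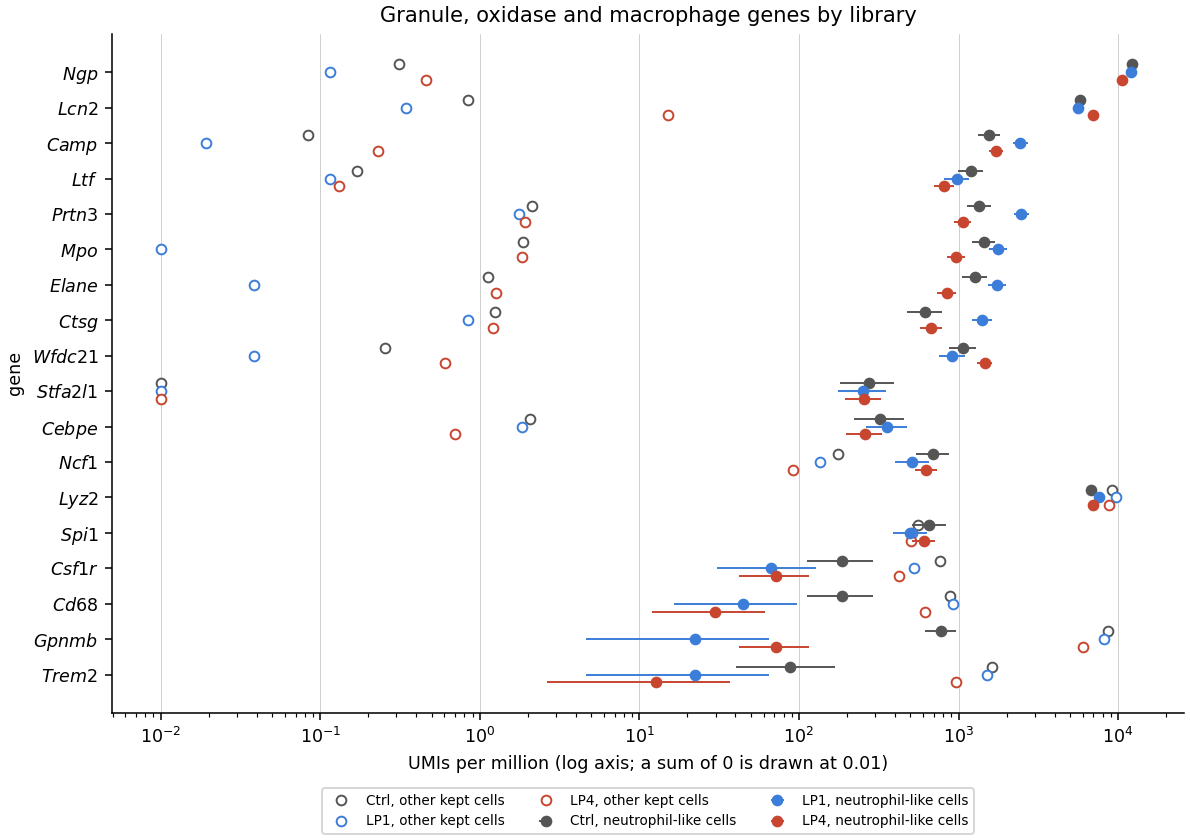
CPM (log axis, 0 drawn at 0.01) of 18 genes in the summed members (filled, bars are exact 95% Poisson intervals) and in the summed other kept cells (open) of the 3 libraries. The values of *Ngp* lie at 10586.4 CPM or more in members and at 0.458 CPM or less elsewhere, while those of *Spi1* and *Lyz2* lie close together in both groups of cells.

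The members differed among themselves in the granule products they held. They were divided at 0.5% of UMIs from the 6 azurophil granule genes, and those below it at 0.5% of UMIs from the S phase and G2/M genes. Both limits were placed after the values were seen, so the resulting classes are ranges of a score and not cell types. No member lay between 0.415% and 0.900% of azurophil UMIs or, among those below that limit, between 0.337% and 0.722% of cell cycle UMIs, and 1 and 0 members lay within 0.1 percentage points of the 2 limits. This gave 17 azurophil-high members, 7 of them also over the cell cycle limit, 28 cycling members and 39 members low in both.

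All 3 classes were present in each library. Azurophil-high members numbered 7, 5 and 5 in Ctrl, LP1 and LP4 (21.9%, 20.8% and 17.9% of members), cycling members 9, 9 and 10 (28.1%, 37.5% and 35.7%), and members low in both 16, 10 and 13 (50%, 41.7% and 46.4%). The exact intervals of the 3 libraries overlap for every class, the widest, that of LP1 members low in both, running from 22.1 to 63.4%.

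Specific granule genes, which the division did not use, ran opposite to the azurophil genes. Their median share of a cell's UMIs was 0.175% in azurophil-high members, 1.91% in cycling members and 2.99% in members low in both. Of the 17 azurophil-high members 4 held 1.01 to 3.04% and the others 0.360% or less. Summed over the libraries, *Ngp* was at 3537, 12333 and 16729 CPM in the 3 classes, *Camp* at 32.6, 2030 and 3340 CPM, and *Lcn2* at 1011, 6976 and 10136 CPM. *Ltf* had no UMI in azurophil-high members, where a floor of 3 counts stands for 24.5 CPM, and was at 760 and 2062 CPM in the others. The azurophil gene *Mpo*, which the division used, was at 4630, 194 and 36.3 CPM.

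The genes of mature neutrophils lay mainly in the members low in both. Their list made a median of 0.141%, 0.222% and 0.622% of UMIs in azurophil-high, cycling and low members, and the gelatinase list 0.135%, 0.165% and 0.346%. *Retnlg* had 0, 1 and 56 UMIs in the 3 classes and *Ly6g* 0, 3 and 16. The formyl peptide receptor gene *Fpr1* had 0, 4 and 39 UMIs, *Cxcr2* had 0, 3 and 14, and *Trem1*, an activating receptor, was at 8.15, 89.7 and 327 CPM. By contrast *Kit* had 14, 11 and 1 UMIs and *Gfi1* 6, 7 and 1.

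Other measures moved with the classes. Median depth was 7364, 6440 and 2551 UMIs and the median mitochondrial share 2.66%, 1.58% and 0.672%, and Spearman's rho between azurophil and mitochondrial shares over the members of a library was 0.81 (n = 32), 0.90 (n = 24) and 0.78 (n = 28). *S100a8* plus *S100a9* made a median of 5.19%, 12.2% and 13%. These cells share a library, its free RNA and its depth, and the part of depth in the class values was not tested. *Cebpe* (196, 354 and 312 CPM) and *Hp* (946, 699 and 1067 CPM) varied less over the classes than the granule genes above.

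**Figure D3:**
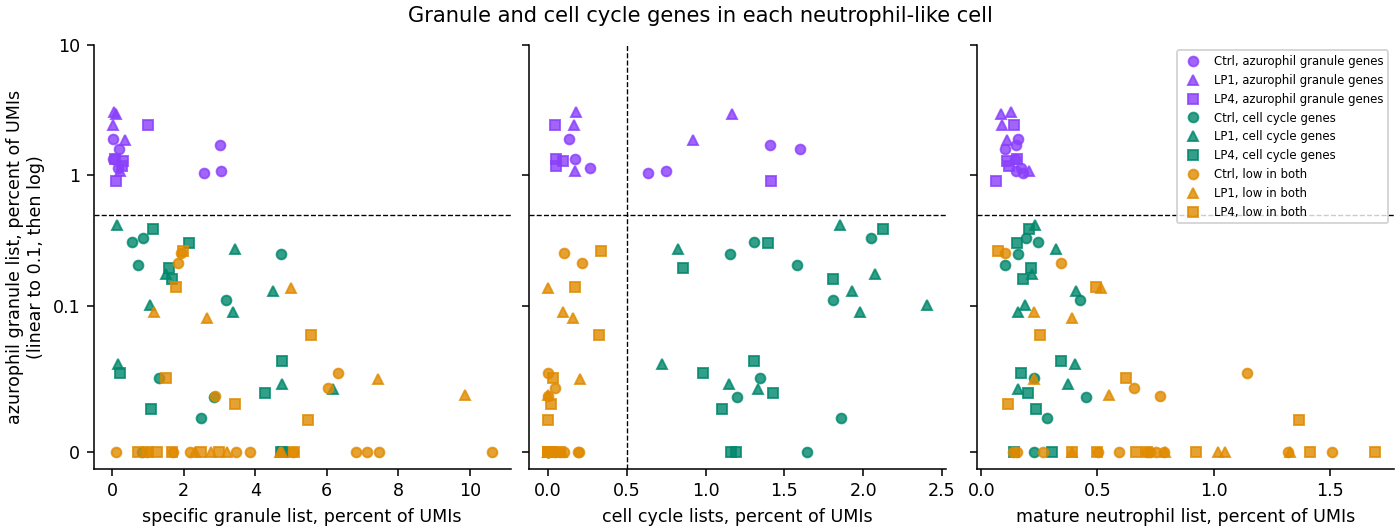
Percentage of each member's UMIs from specific granule, cell cycle and mature neutrophil genes (horizontal axes) against azurophil granule genes (vertical axis). Each member is 1 point, coloured by class and shaped by library, with dashed lines at 0.5%. The 17 azurophil-high members reach 3.04% on the specific granule axis, with a median of 0.175%, and 0.204% on the mature axis. There the 39 members low in both extend furthest.

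The comparison of LP4 with Ctrl asked how the members' transcripts differed after 4 h of *Bb*LP, a contrast that the rule did not use. Its values depend on which cells are members, since with members chosen by UMIs of at least 2 of *Ngp*, *Camp*, *Ltf* and *Retnlg* 216 of the 451 genes named next as higher were again 2-fold or more higher. Of 2829 genes with at least 20 UMIs in the members of the 2 libraries together, 451 (15.9%) were 2-fold or more higher in LP4 and 230 (8.13%) were 2-fold or more lower, and the median log2 ratio was 0.09. The split depended on the scaling, with 559 higher and 175 lower under trimmed mean of M-values factors and 639 higher and 143 lower under the median of ratios. The Ctrl members had fewer UMIs in sum than the LP4 members, so low genes were measured less well there.

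Genes of the NF-κB response, the inflammatory program downstream of Toll-like receptors, were higher in LP4 members. Of 25 list genes 17 entered, 12 were 2-fold or more higher, where 15.9% of all genes were, and none was lower. The list median was 1.79, against 1.39 for the same genes in the other kept cells, which share these libraries. In cycling members alone 7 list genes were 2-fold or more higher, with a median of 0.99, and *Cxcl2*, *Acod1* and *Slpi* reversed.

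The chemokines *Ccl4* and *Ccl3*, which attract leukocytes, were among the largest. *Ccl4* (chr11:83662584-83664683) had 0, 0 and 660 UMIs in Ctrl, LP1 and LP4 members, 2802 CPM in LP4, so its log2 ratio was at least 6.58, against 4.47 in the other cells. *Ccl3* had 21, 72 and 575 UMIs, a log2 ratio of 3.57 (2.94 to 4.27) against 2.49 in the other cells. The *Ccl4* UMIs came from 16 of 28 LP4 members and not from a single cell.

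The NF-κB list genes *Il1b* and *Il1rn*, of the interleukin-1 family, were higher too. *Il1b*, the cytokine itself, had 14, 8 and 173 UMIs (137, 59.5 and 734 CPM), a log2 ratio of 2.42 (1.64 to 3.32), and *Il1rn*, the receptor antagonist that opposes it, had 4, 6 and 125 UMIs, 3.76 (2.37 to 5.66). The corresponding ratios in the other cells were 1.26 and 1.88. At an equal depth of 2000 UMIs, which left out 11, 4 and 0 members, an *Il1b* UMI was found in 4.76%, 0% and 50% of members and a *Ccl4* UMI in 0%, 0% and 42.9%. The members left out were all of the class low in both described above, of which 5 of 16 remained in Ctrl, 6 of 10 in LP1 and 13 of 13 in LP4, so the thinned sets differ in makeup. Without thinning an *Il1b* UMI was found in 12.5%, 12.5% and 60.7% of members.

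*Sod2*, mitochondrial superoxide dismutase, had 11, 36 and 428 UMIs, a log2 ratio of 4.08 (3.22 to 5.09) with a UMI in 28 of 28 LP4 members. *Socs3*, a feedback inhibitor of cytokine receptors, had 2, 2 and 54 UMIs (3.55, 1.63 to 6.63). *Nfkbia*, the inhibitor of NF-κB, had 108, 239 and 401 UMIs and a smaller ratio of 0.69 (0.38 to 1.01), and that of *Tnf* was −0.22, against −1.59 in the other cells.

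Receptor genes of the pathway differed in how many UMIs they had. Of 14 genes of the Toll-like receptor 2 pathway 8 entered the comparison with other cells (1 higher, 1 lower, median −0.41) and 6 entered that of LP4 with Ctrl (3 higher, none lower, median 1.15). Over all genes 19.3% were higher and 23.9% lower in the first comparison and 15.9% and 8.13% in the second. *Tlr2* itself was at 88.1, 59.5 and 127 CPM in members and at 107, 119 and 309 CPM in the other cells, and *Tlr1*, its partner for triacylated lipoproteins, had no UMI in any member. *Cd14*, the co-receptor, had 25, 48 and 518 UMIs, a log2 ratio of 3.17 (2.59 to 3.81) against 2.26 in the other cells, with a UMI in 28 of 28 LP4 members. *Irak3*, a kinase-related inhibitor of the pathway, had 31, 29 and 176 UMIs (1.30, 0.74 to 1.90).

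Of the granulocyte factors 4 entered and 2 were higher in LP4, where 15.9% of all genes were. *Cebpb*, the C/EBP of emergency granulopoiesis, had 7, 18 and 285 UMIs, a log2 ratio of 4.14 (3.08 to 5.47) against 4.07 in the other cells, and *Cebpd* had 8, 17 and 60 UMIs (1.70, 0.63 to 2.98). *Arf5*, a small GTPase of membrane traffic, had 1 UMI in Ctrl and 51 in LP4 (4.47, 1.92 to 9.80). Of the 8 genes with the largest ratios under the rule for named genes, 5 were NF-κB list genes, and the others were *Arf5*, *Cebpb* and *Cd14*.

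*Cxcl2*, a ligand of CXCR2 that recruits neutrophils, went the other way from the surrounding cells. It had 107, 135 and 638 UMIs in members (1047, 1004 and 2708 CPM), a log2 ratio of 1.37 (1.07 to 1.68), whereas in the other cells it was −1.56. The higher level did not extend over the members. At 2000 UMIs per cell 52.4%, 40% and 32.1% of members had a *Cxcl2* UMI, 1 LP4 member held 34.0% of the LP4 UMIs, and the level in members low in both was 2493, 4632 and 8095 CPM against 354, 162 and 83.8 CPM in cycling members. Among cells chosen instead by UMIs of at least 2 of *Ngp*, *Camp*, *Ltf* and *Retnlg* the log2 ratio was −0.09, and in cycling members it was −2.08. With the order of the shares against that of the CPM, no order of responding cells is read from it.

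The upstream window of *Cxcl2* is shown because it is an NF-κB list gene whose ratios were opposite in the 2 groups of cells. An NF-κB type motif, GGG and TTTCC with any 2 bases between them on either strand, occur in 464 of 32851 windows (1.41%) and in 5 of 20 NF-κB list genes with a window, *Cxcl2*, *Cxcl3*, *Il1rn*, *Nfkbia* and *Tnfaip3*. *Cxcl2* has 2 matches, in capitals in the stretch chr5:90903649-90903870 on the plus strand (GRCm38.p6, RefSeq), which ends before the GENCODE gene start.
Cxcl2: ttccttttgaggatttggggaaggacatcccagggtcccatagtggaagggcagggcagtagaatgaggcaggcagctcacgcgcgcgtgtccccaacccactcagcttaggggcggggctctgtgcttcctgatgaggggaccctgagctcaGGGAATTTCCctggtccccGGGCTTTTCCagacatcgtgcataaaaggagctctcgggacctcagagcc
The C/EBP letters occur in windows of 4 of the same 20 genes.

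Interferon response genes stayed far below their level in the other cells. In the LP4 library the 17 list genes summed to 785 CPM in members and 13835 CPM in the other cells, against 450 and 888 CPM in Ctrl and 231 and 750 CPM in LP1. They made a median of 0.0553% of UMIs in LP4 members, whose highest value, 0.265%, lay below the median of 1.27% in the other LP4 cells. The highest interferon share of all members, 1.32%, was that of 1 Ctrl member with 909 UMIs, where the Ctrl median was 0%. *Ifit1*, an RNA-binding antiviral protein, had 2, 0 and 14 UMIs in members (59.4 CPM in LP4, against 2006 CPM in the other cells). *Cxcl10*, a chemokine for lymphocytes, had 13, 19 and 39 UMIs, a log2 ratio of 0.38 against 5.55 in the other cells.

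A pair of interferon genes were nevertheless 2-fold or more higher in LP4 members than in Ctrl members, where 15.9% of all genes were. Only 3 of 17 genes entered, with a median of 1.68 against 3.35 for the same genes in the other cells. Among the 2 higher genes was *Isg15*, a ubiquitin-like modifier with 3, 0 and 39 UMIs and a log2 ratio of 2.50 (0.84 to 4.83). In cycling members 1 list gene entered, *Cxcl10*, at −0.09 (−1.31 to 1.29). At 2000 UMIs per cell an *Ifit1* UMI was found in 17.9% of LP4 members and in 85.7% of the other LP4 cells. Macrophage list genes, which neutrophils should lack, were at 263 CPM in LP4 members and 12266 CPM in the other LP4 cells. This proportion, a log2 ratio of −5.54, was similar to that of *Ifit1*, whereas the summed interferon list stood at −4.14. The part of free RNA in the interferon values of members was not tested. In the comparison with other cells 13 of the 15 list genes that entered were lower in members and 1 was higher (median −2.20), where 23.9% of all genes were lower and 19.3% higher.

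Immediate early genes, the first transcribed after a stimulus, were lower in members than elsewhere, 9 of 14 lower and 3 higher (median −1.31), as were NF-κB genes, 13 of 23 lower and 3 higher (median −1.19), where 23.9% of all genes were lower and 19.3% higher. Summed over its genes with 20 CPM or more in the other cells, the NF-κB list was close within LP4, at 19089 CPM in members and 18449 CPM in the other cells, whereas it was lower in Ctrl (6058 against 10417 CPM) and in LP1 (6825 against 12394 CPM). Within LP4 the log2 ratios of single list genes ran from −5.86 (*Ccl2*) to 3.45 (*Slpi*), with a median of −0.55. The median share per cell was 1.21% in LP4 members and 1.78% in the other LP4 cells. Between LP4 and Ctrl members, 8 immediate early genes entered, 1 was higher and 3 were lower, against 15.9% and 8.13% of all genes (median −0.03, against −1.22 in the other cells). *Jun*, a subunit of AP-1, had a log2 ratio of −1.24 against −3.17 in the other cells, and *Ier2* −1.65 against −1.78.

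None of 5 azurophil and none of 6 specific granule genes was 2-fold or more higher or lower in LP4 members than in Ctrl members, with list medians of −0.35 and −0.03. The azurophil median turned with the choice of members, to 1.79 with members chosen by at least 2 of the 4 other markers, 0.71 in members low in both, 0.26 without the deepest member of each library and 0.15 at a threshold of 5%. *Ngp* stood at −0.20 (−0.30 to −0.10), *Mpo* at −0.57 (−0.88 to −0.26), *Camp* at 0.15 and *Ltf* at −0.55. *Lcn2* was at 0.27 in members and at 4.17 in the other cells. Of 4 gelatinase genes 2 were lower, where 8.13% of all genes were (median −0.39), among them *Retnlg* at −5.96 (−11.3 to −3.36), which rests on 27 Ctrl UMIs in 6 members.

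Of 11 genes of mature neutrophils 5 were higher and none lower, where 15.9% of all genes were higher and 8.13% lower (median 0.88, against 1.16 in the other cells). The list as a whole was nearly level, at 2995 CPM in Ctrl and 3069 CPM in LP4 members, and its median share of a member's UMIs was 0.256% and 0.225%. *Fpr1* went from 1 to 36 UMIs (3.97, 1.40 to 9.31), *G0s2* from 15 to 111 (1.68, 0.90 to 2.57) and *Clec4d*, a C-type lectin receptor, from 21 to 102 (1.08, 0.39 to 1.83). The intervals of the remaining pair, *Fpr2* and *Padi4*, the histone-citrullinating enzyme, include 0. Of the NADPH oxidase genes only *Cybb*, the catalytic subunit, passed 2-fold, at 1.09 (list median −0.28). For the cell cycle, 1 of 11 S phase genes was higher and 2 were lower (median −0.34), and 4 of 15 G2/M genes were higher (median 0.41). The 1 monocyte gene that entered, *Ly6c2*, was at 0.19.

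Under the rule for named genes, which asked for 200 CPM or more in Ctrl and UMIs in enough of its members, the 8 smallest log2 ratios of LP4 over Ctrl in members belonged to *Gpnmb* (−3.42), *Ifi27l2a* (−3.18), *Ifitm6* (−2.60), *Mt1* (−2.51), *AY036118* (−2.10), *Timm10b* (−2.09), *Ogfrl1* (−2.06) and *Sirpa* (−1.98). *Mt1*, a metal-binding metallothionein, had 37, 19 and 15 UMIs in members, with an interval of −3.48 to −1.61, and a log2 ratio of 1.04 in the other cells. All 4 macrophage list genes that entered were also lower (median −2.61, against −0.52 in the other cells). The 2 Ctrl members rich in macrophage transcripts held most of these UMIs, and without them 38 of the 176 Ctrl UMIs of the list remained. The list then summed to 428 CPM in Ctrl against 263 CPM in LP4, and only 2 of its genes entered, *Gpnmb* at −1.64 (−2.67 to −0.64) and *Csf1r* at 0.68 (−0.94 to 2.71), with a median of −0.48.

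**Figure D4:**
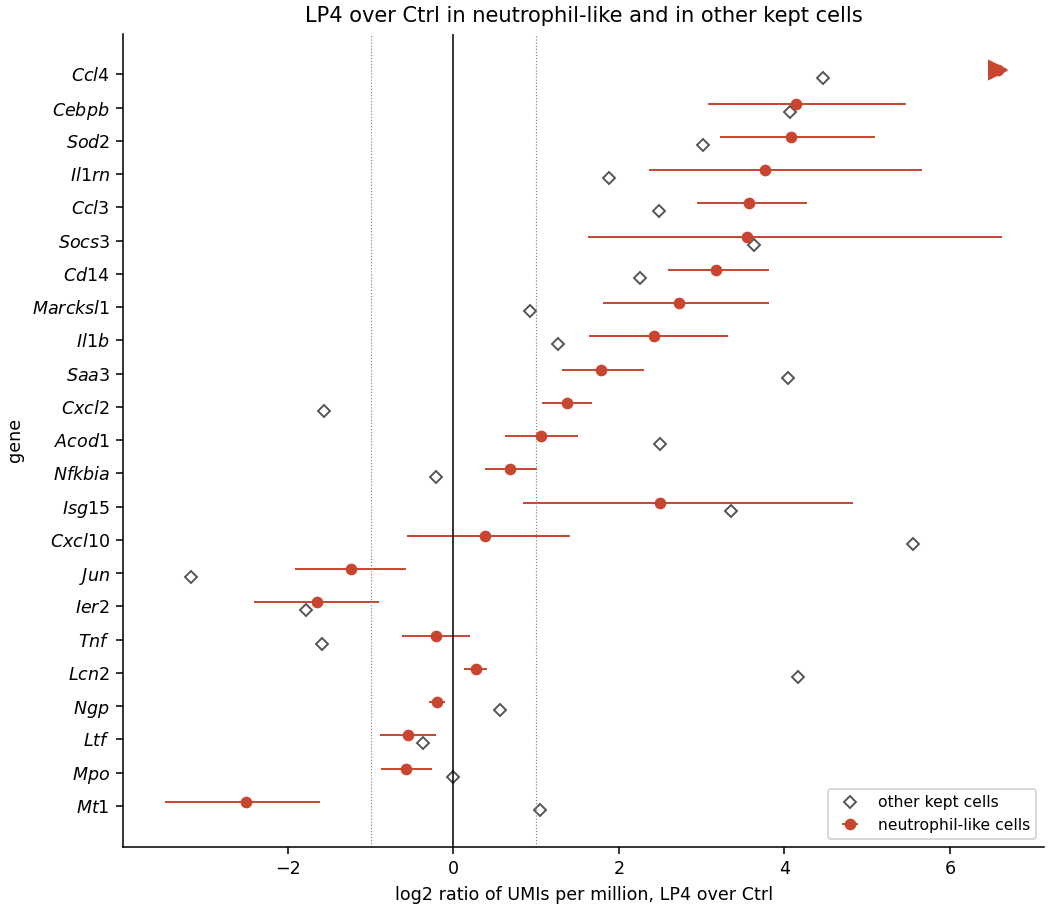
Log2 ratio of LP4 over Ctrl for 23 genes in the summed members (filled, bars are exact 95% intervals from counting, the arrow marks the lower bound of *Ccl4*) and in the summed other kept cells (open). *Cxcl2* lies right of 0 in members (1.37) and left of it in the other cells (−1.56), and *Lcn2*, *Ngp*, *Ltf* and *Mpo* lie between −0.57 and 0.27 in members.

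After 1 h the members differed less from Ctrl. Of 2039 genes that entered, 164 (8.04%) were 2-fold or more higher in LP1 and 123 (6.03%) were 2-fold or more lower. Of 13 NF-κB genes 2 were higher and 3 lower, with a median of 0.11, and the azurophil list had 1 of 6 genes higher (median 0.60). LP1 and LP4 were set against the same Ctrl members, so the 2 sets of ratios share them. *Nfkbia* was higher at 1 h (0.75, 0.42 to 1.09), while *Il1b* stood at −1.20 (−2.66 to 0.15). The 4 macrophage genes that entered were lower at 1 h as well (median −2.02). Without the 2 macrophage-rich Ctrl members only *Gpnmb* entered, with 20 UMIs in Ctrl and 3 in LP1 (−3.34, −5.73 to −1.58), and the list summed to 428 CPM in Ctrl and 245 CPM in LP1.

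The NF-κB list varied strongly from member to member. Its 25 genes made 0.112 to 2.91% of UMIs in Ctrl members (median 0.619%), 0.0945 to 6.23% in LP1 (median 0.732%) and 0.211 to 15.0% in LP4 (median 1.21%). The ranges of the 3 libraries overlap, and the LP4 library reached highest. In the other kept cells the medians were 1.07%, 1.24% and 1.78%.

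The spread followed the classes. In Ctrl the medians were 0.269% in azurophil-high, 0.707% in cycling and 0.962% in members low in both. In LP1 they were 0.327%, 0.568% and 1.22%, and in LP4 0.610%, 0.946% and 4.17%. The order of the class medians was the same in each library. Over the 28 LP4 members Spearman's rho of the NF-κB share was 0.76 with the mature neutrophil share, −0.76 with the azurophil share and −0.59 with the UMI count of the cell. The NF-κB and mature lists share *Il1r2*, and the shallower cells were those low in both, so the part of depth cannot be told apart from that of class.

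Single genes divided differently over the classes. In LP4 *Ccl4* was at 19.8, 409 and 7928 CPM in azurophil-high, cycling and low members, with UMIs in 1 of 5, 4 of 10 and 11 of 13 cells. *Il1b* was at 39.6, 195 and 1934 CPM. *Sod2* was present in every LP4 member, at 1029, 1787 and 2372 CPM, where the Ctrl classes held 32.7, 136 and 143 CPM. The higher level of *Sod2* thus extended over all 3 classes, whereas *Ccl4* lay mainly in members low in both.

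**Figure D5:**
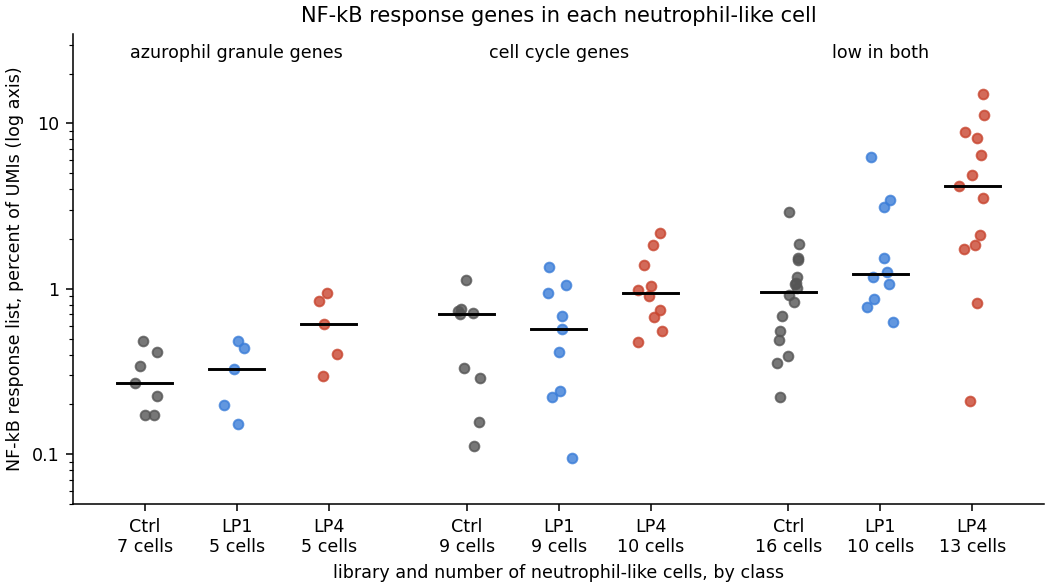
Percentage of each member's UMIs from the 25 NF-κB response genes (log axis) by class and library, 1 point per member, with bars at the medians. In LP4 the medians are 0.610%, 0.946% and 4.17% in azurophil-high members, cycling members and members low in both.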

How the data were processed

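The deposited files held raw UMI counts per gene and barcode, which the authors made from Chromium 3′ libraries with Cell Ranger (7.1.0 in the submitters' processing notes) against mm10, as 1 filtered matrix of 32285 genes per library. Here 15806 of 16281 barcodes passed the cell limits the study states, more cells than the study kept. Doublets were not removed, and leaving out the 5% of barcodes of each library with the highest Scrublet scores was an alternative. Total depth is given with the libraries, and with 1 library per condition samples entered no test.

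UMIs were summed over members and over other kept cells of each library and scaled to CPM. Poisson intervals of CPM, conditional binomial intervals of log2 ratios and Clopper-Pearson intervals of shares are exact. A sum of 0 was set to 3 counts for a ratio, which is then a bound. A gene entered with 50 CPM in the pooled members or the pooled other cells, or, between libraries, with 20 UMIs in the members of both libraries together. Named genes were those of the lists, the 20 with the largest and the 10 with the smallest ratios to other cells, and the 8 with the largest ratios between LP4 and Ctrl in each direction, above minimum levels and shares of members and without mitochondrial, ribosomal protein and unnamed genes. *Lyz2* was named after its values were seen.

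The members, the 21 gene lists (219 entries, *Mx1* not analysed here, and 1 interferon list gene that passed 2-fold is not reported here by name) and the classes were chosen with earlier results of these data known. Coordinates came from GENCODE vM21, with 244 of 244 named genes matched. The scripts were tested on simulated data and used scipy 1.17.1 for intervals, scanpy 1.11.5 for Scrublet and numpy 2.4.6, pandas 2.3.3 and matplotlib 3.10.9 under Python 3.11.15, with edgeR 4.0.16 under R 4.3.3 for trimmed mean of M-values factors only. The alternatives were other thresholds and cell limits, another choice of members, other scalings, other minimum levels, cells weighted equally, other thinning depths, and the removal of deep, doublet-scored or macrophage-rich members.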

Additional observations from a re-analysis of the deposited data

Results flagged for a closer look

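*Cxcl2* and *Mt1* differed in direction between LP4 and Ctrl in members and in the other kept cells. The log2 ratio of *Cxcl2* was 1.37 in members and −1.56 in the other cells, and that of *Mt1* was −2.51 and 1.04. With 1 library per condition the difference was not tested for either gene. The *Mt1* ratio rests on 37 UMIs in Ctrl members and 15 in LP4 members.

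In Ctrl, 6 barcodes lay over the *S100a8* plus *S100a9* threshold but outside the kept cells, with 725 to 947 UMIs each. They entered none of the comparisons above.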

How the results depend on the processing

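The results were recomputed over 19 alternatives fixed at the outset and 4 that were added after seeing the data. Of the values of the comparisons, 384 stayed within a set limit, 44 moved further and 1 reversed. For 38 single genes these numbers were 642, 70 and 7. The limit was the counting interval for shares and single genes, and a factor of 1.5 for counts of genes. For list medians against other cells it was the standard deviation of the median over the 3 libraries. For list medians of LP4 over Ctrl it ran between the medians of the genes' lower and upper interval ends. No paired analysis was possible because each condition had 1 library and no test was made. Trimmed mean of M-values factors shifted the median log2 ratio of LP4 over Ctrl in members by 0.13 and the median of ratios by 0.21.

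With members chosen by UMIs of at least 2 of *Ngp*, *Camp*, *Ltf* and *Retnlg*, the Ctrl share was 0.313%, and the medians against other cells were 5.39 for azurophil, 2.93 for G2/M and −2.52 for macrophage genes. Between LP4 and Ctrl they were 1.79 for azurophil, −0.50 for specific granule and −0.45 for macrophage genes, *Cxcl2* reversed to −0.089, azurophil-high members made 0%, 0% and 5% of the members of Ctrl, LP1 and LP4, and 78.9% of Ctrl members were low in both. At a threshold of 5% the azurophil and S phase medians against other cells were 8.15 and 2.25, the azurophil median of LP4 over Ctrl was 0.15, *Csf1r* reversed to 0.18 and 5% of LP1 members were azurophil-high. A mitochondrial limit of 3% gave an LP4 share of 1.38% and an S phase median of 3.21. Without the barcodes of highest Scrublet score, among them 3 Ctrl members, the S phase median was 2.38, the macrophage median of LP4 over Ctrl −0.54 and *Csf1r* reversed to 0.62.

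Minimum levels of 20 and 100 CPM gave 1349 and 438 genes higher in members, S phase medians of 1.85 and 3.39 and, at 100 CPM, 632 genes lower. CPM without *S100a8*, *S100a9*, mitochondrial and ribosomal protein genes gave an NADPH oxidase median of 0.92, and cells weighted equally a mature neutrophil median of 6.65 and a specific granule median of LP4 over Ctrl of −0.50. For LP4 over Ctrl, minimums of 5 and 50 UMIs gave 1126 and 149 genes higher and 1069 and 58 lower, and the median of ratios gave 143 lower. Without the deepest member of each library the azurophil median was 0.26. Without the 2 macrophage-rich Ctrl members, an alternative added later, the macrophage median was −0.48, with 2 genes left, and *Csf1r* reversed to 0.68.

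Of the other alternatives added later, members low in both gave 181 genes higher, 114 lower and an azurophil median of 0.71. Cycling members gave 230 higher, 90 lower, 7 NF-κB genes higher with a median of 0.99 and an interferon median reversed to −0.091, where *Cxcl10* was the 1 gene left, and *Cxcl2* (−2.08), *Acod1* (−0.40) and *Slpi* (−0.39) reversed. With thinning to 1000 UMIs the share of members with a UMI was 0% for *Il1b* in Ctrl and 3.57% for *Ifit1* in LP4, and without thinning it was 53.6% for *Cxcl2* in LP4. The cause of these changes was not tested.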
